A study of Mus musculus with 2 samples.

Results

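The genes described here encode the antigen receptor of T cells and the coreceptors beside it: Cd3e, Cd3d, Cd3g and Cd247, the constant regions Trac, Trbc1, Trbc2 and Trdc, and the coreceptors Cd4 and Cd8a. They were taken by symbol as 10 of the 27809 genes of a table of reads per gene and cell. CD45+ cells, which are leukocytes, were taken from hearts of male C57BL/6 mice of WT or CD3e-/- genotype 1 week after transverse aortic constriction (TAC), which loads the left ventricle with pressure, or after a sham operation. All cells went into 1 TAS-Seq library, made on the BD Rhapsody microwell platform, and antibody hashtags told the groups apart. The 5 hashtag groups were WT sham, CD3e-/- sham, WT TAC, CD3e-/- TAC, and WT mice that had TAC and were injected with anti-CD8 antibody, here called CD8-depleted TAC. CD3e-/- mice lack the CD3ε chain from birth, in every cell, and the part of the gene that was deleted is not given in the sources used here. Each group is therefore 1 sample, the number of mice behind a hashtag is not given, and no difference between groups carries a test. Values in brackets are 95% confidence limits that cover counting error only. They are exact binomial (Clopper-Pearson) limits where a share is given and exact Poisson limits where reads were summed. Reads were counted without molecular identifiers and are not independent molecules, so the limits on summed reads are too narrow.

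Most T cells carry a receptor made of an α and a β chain, whose constant parts are encoded by Trac and by Trbc1 or Trbc2, and a smaller set carries γ and δ chains, with Trdc for δ. These chains have hardly any cytoplasmic tail. They reach the cell surface and signal only with the CD3γ, δ and ε chains and the ζ chain encoded by Cd247, which NK cells also use under other receptors. CD4 and CD8 bind MHC class II and class I beside the receptor, and both are also found on some myeloid cells, CD4 on macrophages and plasmacytoid dendritic cells and CD8α on dendritic cells.

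On mouse genome build GRCm38.p6 the CD3 genes form a cluster on chromosome 9, with Cd3g at chr9:44969572-44980431, Cd3d at chr9:44981769-44987052 and Cd3e at chr9:44998735-45009663. Cd3g and Cd3d are read away from each other from starts that lie 1337 bases apart. Cd247 is on its own at chr1:165779952-165871153. Trdc (chr14:54142851-54146108) and Trac (chr14:54220521-54224198) share a locus, Trbc1 (chr6:41538219-41539665) and Trbc2 (chr6:41546730-41548181) lie 7064 bases apart, and Cd4 (chr6:124864693-124888247) and Cd8a (chr6:71373427-71379171) are elsewhere on the same chromosome. The promoter windows of the 3 clustered CD3 genes are shown because these genes were read together in the same cells. They are taken from RefSeq, run from 250 bases before to 50 bases after each start on the gene's own strand, and have the letters CACCTG, searched on both strands, in capitals. Cd3e is at chr9:45009562-45009861 on the minus strand, Cd3d at chr9:44981536-44981835 on the plus strand and Cd3g at chr9:44980382-44980681 on the minus strand.
Cd3e: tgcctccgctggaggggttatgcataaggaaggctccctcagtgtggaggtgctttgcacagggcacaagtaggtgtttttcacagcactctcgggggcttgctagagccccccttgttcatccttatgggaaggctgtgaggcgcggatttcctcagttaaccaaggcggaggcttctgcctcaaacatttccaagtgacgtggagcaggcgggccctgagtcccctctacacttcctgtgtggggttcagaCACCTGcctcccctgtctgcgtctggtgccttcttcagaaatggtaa
Cd3d: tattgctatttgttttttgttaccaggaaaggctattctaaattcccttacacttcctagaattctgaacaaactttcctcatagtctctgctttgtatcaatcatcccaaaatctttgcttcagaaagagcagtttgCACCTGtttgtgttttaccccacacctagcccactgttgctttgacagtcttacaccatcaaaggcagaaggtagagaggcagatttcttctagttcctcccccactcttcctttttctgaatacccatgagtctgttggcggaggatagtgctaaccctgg
Cd3g: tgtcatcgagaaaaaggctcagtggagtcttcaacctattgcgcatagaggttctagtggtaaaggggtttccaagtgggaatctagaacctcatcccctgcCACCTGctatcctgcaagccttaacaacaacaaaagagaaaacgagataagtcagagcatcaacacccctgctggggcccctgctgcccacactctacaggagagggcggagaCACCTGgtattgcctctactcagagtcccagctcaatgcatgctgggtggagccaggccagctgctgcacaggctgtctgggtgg
CACCTG occurred 1 time in the windows of Cd3e and Cd3d and 2 times in that of Cd3g, and 20% of all 27025 windows hold it. GATA occurred 2 times each in the windows of Cd3d and Cd3g and not in that of Cd3e, against 58.3% of all windows. TGTGGT and TATAAA, which 16.9% and 14.2% of windows hold, were in none of the 3. The motifs were chosen with these sequences in view, and a match is a description only.

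Trbc1 and Trbc2 are near-identical over most of their coding transcripts, which bears on how far their reads can be told apart. Over the first 500 positions of the 2 coding transcripts of GENCODE vM1, 19 positions differ and 96.2% are identical. Only 1 difference, at position 260, falls within the first 360 positions, and the remaining 18 lie in the 140 positions printed here, 361 to 500, where capitals mark the bases that differ.
Trbc1: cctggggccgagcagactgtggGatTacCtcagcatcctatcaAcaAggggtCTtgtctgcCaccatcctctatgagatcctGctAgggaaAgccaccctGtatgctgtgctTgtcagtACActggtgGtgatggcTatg
Trbc2: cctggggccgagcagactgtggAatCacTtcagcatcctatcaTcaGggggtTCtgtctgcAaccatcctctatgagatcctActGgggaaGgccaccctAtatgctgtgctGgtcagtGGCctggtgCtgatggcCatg
The transcripts were not compared beyond these positions, although this library reads the 3′ part. The division of reads between them is therefore uncertain, and their joint detection is given beside each.

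Of 5315 cells with a hashtag, 5263 passed the filters. Lyz2 codes for lysozyme of myeloid cells and Cd79a for a chain of the B cell receptor, and the 1230 cells with Lyz2 under 2000 and Cd79a under 200 CPM, counts per 1000000 reads of the cell, are called gated. They numbered 303 in WT sham, 192 in CD3e-/- sham, 384 in WT TAC, 158 in CD3e-/- TAC and 193 in CD8-depleted TAC. The gate was not a T cell gate. Monocyte and macrophage markers summed to between 1248 and 1904 CPM, and 136 of 384 gated cells of WT TAC and 62 of 158 of CD3e-/- TAC held 3 or more of them. Markers of dendritic cells, mast cells, type 2 innate lymphoid cells (ILC2), NK cells and fibroblasts were read in it as well, and those of mast cells, summed, ranged from 1026 CPM in CD3e-/- TAC to 13364 CPM in WT sham. The other 4033 kept cells were 3563 cells with Lyz2 of 2000 CPM or more and 470 B cells. Median reads of gated cells lay between 83007 in WT sham and 118082 in WT TAC, and for B cells, which should lack these genes, between 46350 and 56470.5. Shares of cells were therefore counted after each cell had been thinned to 33929 reads, which left out 123 gated cells (27, 22, 35, 28 and 11 in the group order above). No cell barcode number was shared between groups.

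Cd3e, Cd3d and Cd3g, whose products pair as γε and δε in the receptor, were read in gated cells of the 3 groups of WT genotype and had far fewer reads in those of both CD3e-/- groups. Cd3g came to 129 CPM (125 to 133) in WT sham, to 51.5 CPM (49.7 to 53.4) after TAC in WT mice and to 84.1 CPM (80.7 to 87.7) in CD8-depleted TAC. It came to 2.31 CPM (1.72 to 3.04) in CD3e-/- sham and to 0 of 21999367 reads in CD3e-/- TAC. Cd3g was thus 55.8-fold lower (42.4 to 75.1) in CD3e-/- sham than in WT sham. No fold is given for the TAC groups, since a single positive cell of WT TAC held a median of 55.5 reads.
Cd3d, the δ chain, stood at 66.6, 34.3 and 68.2 CPM in WT sham, WT TAC and CD8-depleted TAC and at 2.91 and 1.45 CPM in CD3e-/- sham and CD3e-/- TAC. The CD3e-/- groups lay 22.9-fold (17.9 to 29.9) and 23.6-fold (16.6 to 34.6) lower than the WT groups of the same operation.
Cd3e itself stood at 46.0, 30.9 and 46.6 CPM in the same WT order and at 1.32 and 3.32 CPM in CD3e-/- sham and CD3e-/- TAC, 34.9-fold (24.2 to 52.4) and 9.32-fold (7.37 to 11.9) lower. Since reads came from the 3′ part of transcripts, Cd3e reads in CD3e-/- cells do not check the label unless they lie in the deleted part. Cd3g and Cd3d, which lie in the same cluster on chromosome 9, were also far lower. Whether the deletion itself changes their reads was not tested.

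Counted by cell, the 3 CD3 genes overlapped in part. Of the gated cells with any of them after thinning, 29 held all 3 and 29 held 1 in WT sham, 29 and 26 in WT TAC, and 22 and 14 in CD8-depleted TAC, while in CD3e-/- sham and CD3e-/- TAC 13 and 16 cells held 1 and none held more. After thinning, Cd3g was read in 48 of 276 gated cells of the WT sham group (17.4%, 13.1 to 22.4), 39 of 349 of WT TAC (11.2%, 8.07 to 15.0) and 29 of 182 of CD8-depleted TAC (15.9%, 10.9 to 22.1). It was read in 2 of 170 cells of CD3e-/- sham (1.18%, 0.143 to 4.19) and in 0 of 130 of CD3e-/- TAC, which allows a share of up to 2.31%, taking 3 cells as the limit of a count of 0. Without thinning the shares were 16.2%, 10.4%, 15.0%, 1.56% and 0%. In B cells Cd3g was read in 1 of 76, 0 of 90, 2 of 72, 0 of 58 and 1 of 59 cells in the order WT sham, CD3e-/- sham, WT TAC, CD3e-/- TAC and CD8-depleted TAC. Both CD3e-/- groups thus stood near this background, which rests on few cells. The shares of the WT groups were higher, but in WT TAC the interval of B cells (0.338 to 9.68) overlapped that of gated cells.
Cd3d was scattered more widely. In CD3e-/- sham and CD3e-/- TAC it was read in 4.12% and 5.38% of gated cells, against 3.33% and 1.72% of their B cells, with a median of 1 read in a positive cell before thinning. In the WT groups 14.3% to 19.2% of gated cells held it.
Cd3e was read in 9 of 130 gated cells of CD3e-/- TAC (6.92%, 3.21 to 12.7), which overlapped with 38 of 349 in WT TAC (10.9%, 7.82 to 14.6), and in 1 of 58 B cells of CD3e-/- TAC. In CD3e-/- sham it was read in 4 of 170 cells (2.35%, 0.645 to 5.91), against 33 of 276 in WT sham, and in 1 of 90 B cells. Without thinning the shares were 10.8% in CD3e-/- TAC, 12.2% in WT TAC, 3.65% in CD3e-/- sham and 13.9% in WT sham. Positive cells of CD3e-/- sham and CD3e-/- TAC held a median of 1 and 2 reads, against 19.5 and 23 in WT sham and WT TAC.

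Cells with reads of 2 or more of Cd3e, Cd3d and Cd3g are called CD3-positive. WT sham had 35 of 276 (12.7%, 8.99 to 17.2), WT TAC had 36 of 349 (10.3%, 7.33 to 14.0) and CD8-depleted TAC had 28 of 182 (15.4%, 10.5 to 21.5). CD3e-/- sham had 0 of 170, which allows a share of up to 1.76%, and CD3e-/- TAC had 0 of 130, which allows up to 2.31%. In B cells 1 of 76, 0 of 90, 2 of 72, 0 of 58 and 1 of 59 met the same rule, in the order WT sham, CD3e-/- sham, WT TAC, CD3e-/- TAC and CD8-depleted TAC. The intervals of the 3 WT groups overlapped each other and excluded 0. Of all kept cells deep enough to be thinned, gated CD3-positive cells made up 3.96%, 2.41% and 3.36% in the order WT sham, WT TAC and CD8-depleted TAC. 
In a CD3-positive cell of WT sham, Cd3g ranged from 162 to 3429 CPM with a median of 670.3 CPM, in WT TAC the median was 457 CPM and in CD8-depleted TAC 469.8 CPM. The medians of Cd3e in the cells that held it were 422, 339.8 and 406 CPM and those of Cd3d 562, 242 and 329 CPM. Each median thus lay lower in WT TAC than in WT sham, and the ranges over cells overlapped widely.

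**Figure D1:**
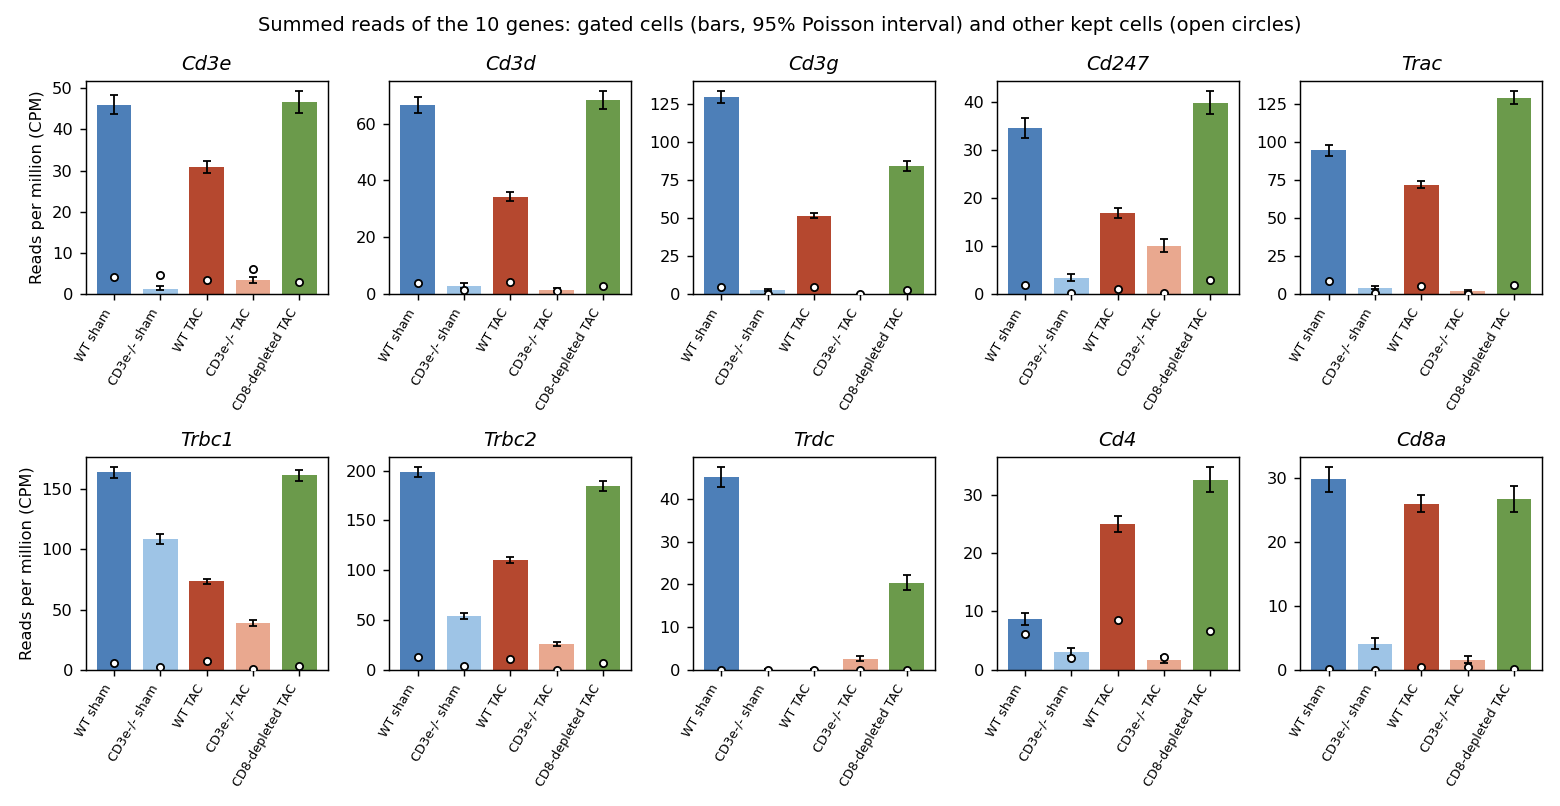
Summed reads of each of the 10 genes as CPM (y axis, a scale of its own for each gene) in gated cells of the 5 groups (bars, with exact 95% Poisson intervals) and in the other kept cells (open circles). The bars of Cd3e, Cd3d, Cd3g and Trac reach at most 4.13 CPM in both CD3e-/- groups, while Trbc1 stays at 109 CPM in CD3e-/- sham and 38.5 CPM in CD3e-/- TAC.

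Cd247, the ζ chain, stood nearer to its WT level in CD3e-/- TAC than the genes of the CD3 cluster. It stood at 34.5 CPM in WT sham, 16.8 CPM (15.7 to 17.9) in WT TAC, 39.7 CPM in CD8-depleted TAC, 3.31 CPM (2.60 to 4.17) in CD3e-/- sham and 9.95 CPM (8.68 to 11.4) in CD3e-/- TAC. The CD3e-/- level was 10.4-fold lower (8.21 to 13.4) than WT among sham groups and 1.68-fold lower (1.45 to 1.96) among TAC groups. In CD3e-/- TAC 5 of 130 cells held it after thinning, and 2 cells carried 64.8% of its 219 reads. Among CD3-positive cells 23 of 35, 22 of 36 and 22 of 28 held Cd247 in WT sham, WT TAC and CD8-depleted TAC. Among gated cells that were not CD3-positive, 1.92% to 4.15% held it in every group.

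Trac, the α constant region, followed the CD3 cluster. It came to 94.4 CPM (91.0 to 97.8) in WT sham, 71.8 CPM (69.6 to 74.0) in WT TAC and 129 CPM (125 to 133) in CD8-depleted TAC. It came to 4.13 CPM (3.33 to 5.07) in CD3e-/- sham and 1.86 CPM (1.34 to 2.53) in CD3e-/- TAC, 22.8-fold (18.5 to 28.5) and 38.5-fold (28.3 to 53.8) lower than in the matching WT groups. The Trac reads of the CD3e-/- groups came from 3 cells each. In CD3e-/- sham they were 38 and 33 reads in 2 cells with no Trbc1 or Trbc2 read and 20 reads in a cell with most markers of ILC2. In CD3e-/- TAC they were 19, 6 and 16 reads, in cells that also held 53, 95 and 13 reads of Trbc2.
Trac was read in 28 of 35 CD3-positive cells of WT sham (80%, 63.1 to 91.6), 34 of 36 of WT TAC (94.4%, 81.3 to 99.3) and 26 of 28 of CD8-depleted TAC (92.9%, 76.5 to 99.1). Of the 708 gated WT cells that were not CD3-positive, 4 held it.

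Trbc1 and Trbc2, the β constant regions, did not follow it. Trbc1 stood at 164 CPM (160 to 169) in WT sham and still at 109 CPM (104 to 113) in CD3e-/- sham, at 73.4 CPM in WT TAC and 38.5 CPM (35.9 to 41.1) in CD3e-/- TAC, and at 161 CPM in CD8-depleted TAC. The WT level was 1.51-fold that of CD3e-/- among sham groups (1.44 to 1.59) and 1.91-fold among TAC groups (1.77 to 2.06). Trbc2 stood at 199 CPM in WT sham, 54.3 CPM in CD3e-/- sham, 110.3 CPM in WT TAC, 26.0 CPM in CD3e-/- TAC and 185 CPM in CD8-depleted TAC. It was 3.66-fold and 4.25-fold lower in CD3e-/- sham and CD3e-/- TAC than in the matching WT groups.
Positive cells held many reads of Trbc1 each. Whether low counts of this gene had been removed before deposit was not tested, so the lack of single reads does not settle their origin. In CD3e-/- sham Trbc1 was read in 31 of 170 gated cells (18.2%, 12.7 to 24.9, and also 18.2% without thinning), with a median of 40 reads in a positive cell before thinning, and in 0 of 90 B cells. In CD3e-/- TAC it was read in 12 of 130 gated cells (9.23%, 4.86 to 15.6) and in 1 of 58 B cells. The share in CD3e-/- sham was near that of WT sham (67 of 276, 24.3%, 19.3 to 29.8, and 23.8% without thinning), and the intervals overlapped.

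Among genes of at least 20 CPM in either group, and with 10 CPM added to both levels, a 2-fold or larger difference served as the yardstick for all genes. Between CD3e-/- sham and WT sham 1.06% of 7700 genes lay at least 2-fold lower in CD3e-/- sham, against 8 of the 9 members tested. The 8 were Cd3e, Cd3d, Cd3g, Cd247, Trac, Trbc2, Trdc and Cd8a, the exception was Trbc1, and Cd4 was too low to test. Of the 8, Trdc rested on 6 positive gated cells of WT sham and 0 of CD3e-/- sham, and Cd8a on 8 and 2. Between CD3e-/- TAC and WT TAC 0.613% of 7504 genes lay at least 2-fold lower in CD3e-/- TAC, against 7 of 8 members, Cd3e, Cd3d, Cd3g, Trac, Trbc2, Cd4 and Cd8a. Trbc1 fell short there too, and Cd247 and Trdc were not tested. These shares describe single samples and carry no test.

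The cells that held the β chain reads were sought with lists of 8 markers each for T cells, NK cells and ILC2, none of them a member. These ILC2 are lymphocytes without antigen receptors that make type 2 cytokines. A gated cell was put in the class with the most markers if 3 or more were read and no other list had as many, so that a class is a range of marker counts and not a proven cell type. Of the 3 groups of WT genotype together, 97 of 807 gated cells fell in the T cell class, 31 in the NK cell class and 39 in the ILC2 class, with 9, 2 and 8 of them at the limit of 3 markers. Of both CD3e-/- groups together, 3 of 300 fell in the T cell class, 12 in the NK cell class and 24 in the ILC2 class. The T cell class held 33 of 276 gated cells of WT sham, 35 of 349 of WT TAC and 29 of 182 of CD8-depleted TAC, against 1 of 170 of CD3e-/- sham and 2 of 130 of CD3e-/- TAC.
In the T cell class of the WT groups, 91 of 97 cells were CD3-positive (93.8%), which checks the class against genes it did not use. Trac was read in 83 of these cells (85.6%), Trbc1 or Trbc2 in 96 (99.0%) and Cd247 in 65 (67.0%).
In the NK cell class, Trbc1 or Trbc2 was read in 30 of 31 WT cells (96.8%, 83.3 to 99.9) and in 11 of 12 CD3e-/- cells (91.7%, 61.5 to 99.8). The summed level of Trbc1 in that class was 770.1 CPM in the WT groups and 971 CPM in the CD3e-/- groups. Cd247 was read in 15 of 31 and 6 of 12 of these cells. CD3-positive cells numbered 6 of 31 in the WT groups, 5 of them in WT sham, and 0 of 12 in the CD3e-/- groups.
In the ILC2 class, Trbc1 or Trbc2 was read in 36 of 39 WT cells (92.3%, 79.1 to 98.4) and in 23 of 24 CD3e-/- cells (95.8%, 78.9 to 99.9), and no cell of either genotype was CD3-positive. Cd3g alone was read in 10 of 39 WT cells (25.6%) at 116 CPM and in 2 of 24 CD3e-/- cells (8.33%) at 22.8 CPM. Cd3e was read in none of these cells after thinning and Cd3d in 1 of each genotype, while Trac was read in 0 of 39 and 1 of 24.
In gated cells outside the 3 classes, Trbc1 or Trbc2 was read in 15 of 640 WT cells (2.34%) and 7 of 261 CD3e-/- cells (2.68%). In the NK cell and ILC2 classes the intervals of the 2 genotypes overlapped, and both lay far above those of the unclassed cells (1.32 to 3.84 and 1.08 to 5.45). The limits of the ILC2 class mattered. With 2 or more markers in place of 3, its share with Trbc reads was 67.9% in the WT groups and 71.9% in the CD3e-/- groups, and with another T cell list, chosen after the data were seen, 12% of its WT cells were CD3-positive.

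**Figure D2:**
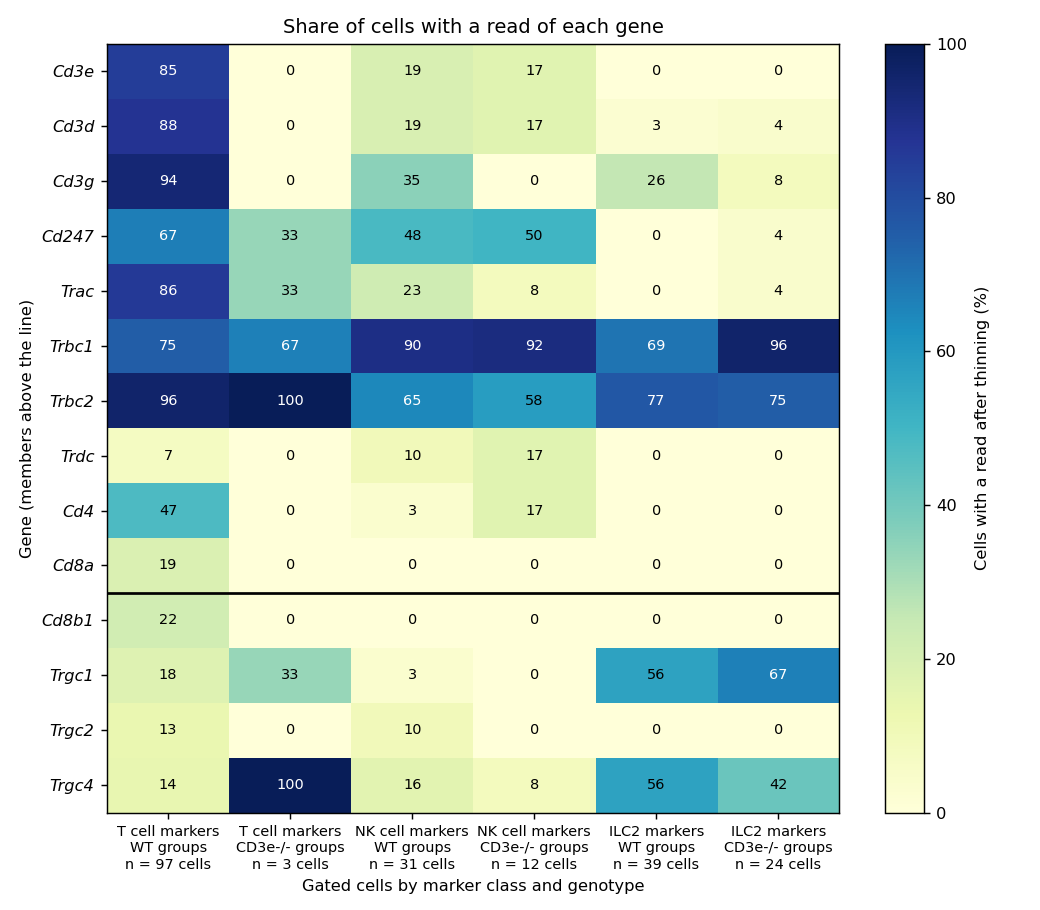
Share of gated cells (in percent, written in each field) with a read of each gene after thinning, by marker class and genotype, where WT groups are the 3 groups of WT genotype and CD3e-/- groups the 2 of CD3e-/- genotype. Trbc1 and Trbc2 are read in most cells of each column, whereas Cd3e, Cd3d, Cd3g and Trac are read in most cells of only the T cell class of the WT groups.

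The levels of the classed cells also showed which groups held which cells. The ILC2 class numbered 32 cells in WT sham, 21 in CD3e-/- sham, 4 in WT TAC, 3 in CD3e-/- TAC and 3 in CD8-depleted TAC, and the NK cell class 15, 3, 11, 9 and 5. Trbc1 in CD3e-/- sham lay mainly in the ILC2 class, where 20 of 21 cells held it, and in CD3e-/- TAC mainly in the NK cell class, where 8 of 9 did. Cd247 in CD3e-/- TAC was read in 4 of 9 cells of the NK cell class and in 0 of 116 unclassed cells.
Within a cell, Trbc1 and Trbc2 were usually read together. In the T cell class of the WT groups, 70 of 97 cells held both, 23 Trbc2 only and 3 Trbc1 only. In the NK cell class the order was turned, with 18 cells holding both, 10 Trbc1 only and 2 Trbc2 only. In the ILC2 class 21 held both, 6 Trbc1 only and 9 Trbc2 only. In the CD3e-/- groups no cell of the NK cell and ILC2 classes held Trbc2 only, while 4 and 5 held Trbc1 only and 7 and 18 held both. The share of cells with both can depend on where the reads fell in the transcript, and this part was not tested.

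**Figure D3:**
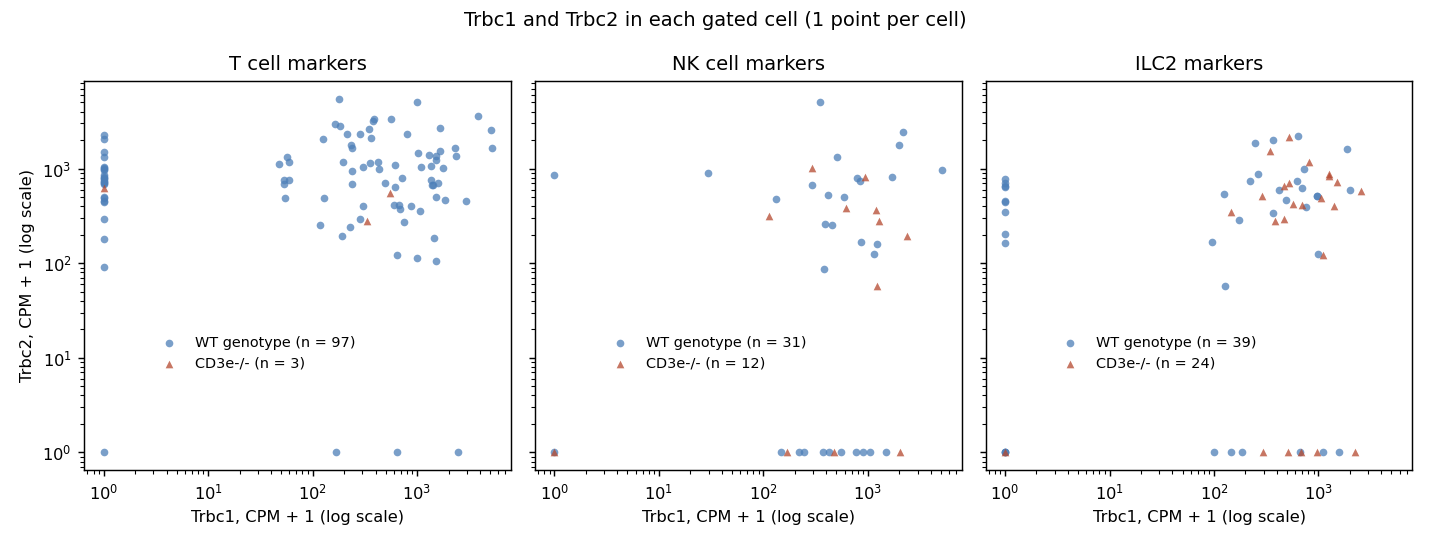
Trbc1 (x axis) and Trbc2 (y axis) as CPM with 1 added, on log scales, with 1 point per gated cell of the T cell, NK cell and ILC2 marker classes. Points at 1 on a scale held no read of that gene, such as the 23 WT cells of the T cell class with Trbc2 only, and CD3e-/- cells lie among the WT cells in the NK cell and ILC2 panels.

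Trdc, the δ constant region, was confined to few cells. It came to 45.2 CPM (42.9 to 47.6) in WT sham, 20.3 CPM (18.7 to 22.1) in CD8-depleted TAC, 2.55 CPM (1.92 to 3.31) in CD3e-/- TAC and 0 in CD3e-/- sham and WT TAC. These reads lay in 6 of 303, 4 of 193 and 2 of 158 gated cells, and no other kept cell of any group held a Trdc read. The 0 of 349 thinned cells of WT TAC allow, by the same limit of 3 cells, a share of up to 0.86% and the 0 of 170 of CD3e-/- sham up to 1.76%, against 2.17% (0.802 to 4.67) in WT sham. The limit of WT TAC lies within the interval of WT sham, so that the absence rests on few cells.
The 12 cells were of 2 kinds. In 7 cells, 5 from WT sham and 2 from CD8-depleted TAC, reads of 2 or more CD3 genes stood beside 28 to 601 reads of Trdc, and all 7 held Trgc1, Trgc2 or Trgc4, the γ constant regions. The other 5 cells, 1 from WT sham, 2 from CD8-depleted TAC and 2 from CD3e-/- TAC, had most markers of NK cells, reads of no more than 1 CD3 gene, no γ constant read, and 21 to 71 reads of Trdc. All 5 held Cd247 and 4 held Trbc1. Trac was read in only 1 of the 12 cells, with 47 reads beside 299 of Trdc.

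The γ constant regions widened this picture. Trgc1 stood at 115 CPM in WT sham, 38.7 CPM in CD3e-/- sham, 7.62 CPM in WT TAC, 3.55 CPM in CD3e-/- TAC and 16.8 CPM in CD8-depleted TAC, and Trgc4 at 41.5, 28.9, 3.65, 6.68 and 7.33 CPM. Both were read in the ILC2 class whatever the genotype, Trgc1 in 22 of 39 WT and 16 of 24 CD3e-/- cells and Trgc4 in 22 of 39 and 10 of 24. After thinning Trgc2 was read in none of these cells. It stood at 29.9 CPM in WT sham and under 0.1 CPM in CD3e-/- sham. Of the 35 CD3-positive cells of WT sham, 15 held Trgc1, Trgc2 or Trgc4, against 4 of 36 after TAC and 6 of 28 in CD8-depleted TAC.
Variable segments were sparse in this 3′ library. The 10 rows of β variable segments together came to 226, 204 and 83 reads in gated cells of WT sham, WT TAC and CD8-depleted TAC, and 14 of 16, 12 of 12 and 8 of 8 thinned cells that held them were CD3-positive. They came to 13 reads, in 1 cell, in CD3e-/- sham and to 0 in CD3e-/- TAC. Trdv4, a δ variable segment, came to 435 reads in 19 cells of WT sham and 50 reads in 8 cells of CD3e-/- sham, against 13 to 57 reads in 2 or 3 cells of the other groups.

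Cd4, the MHC class II coreceptor, was also read outside the gate. In gated cells it came to 8.71 CPM (7.71 to 9.80) in WT sham, 25.0 CPM (23.7 to 26.3) in WT TAC and 32.5 CPM (30.4 to 34.8) in CD8-depleted TAC, and to 2.95 and 1.64 CPM in CD3e-/- sham and CD3e-/- TAC. In the other cells it came to 6.06, 8.44 and 6.69 CPM in the same WT order and to 1.98 and 2.15 CPM in the CD3e-/- groups. After thinning 11 of 276 gated cells of WT sham (3.99%), 33 of 349 of WT TAC (9.46%, 6.60 to 13.0), 20 of 182 of CD8-depleted TAC, 3 of 170 of CD3e-/- sham (1.76%) and 5 of 130 of CD3e-/- TAC (3.85%) held it, and without thinning 5.28%, 11.7%, 14.0%, 3.65% and 6.33%. Only 41.2%, 52.7% and 61.1% of its reads lay in gated cells of the WT groups, against 84.7%, 77.9% and 83.6% for Cd3e.
Of the ungated Cd4-positive cells of WT TAC, 43 of 53 held no CD3 gene and 40 of those 43 held 3 or more of 5 macrophage markers. Cd4 in Lyz2-high cells was read in 4.52%, 4.67% and 4.05% of cells in the 3 WT groups, in that order, and in 2.52% and 2.15% in CD3e-/- sham and CD3e-/- TAC. The level there was 6.72, 8.37 and 6.82 CPM in the WT groups and 2.19 and 2.23 CPM in the CD3e-/- groups. Positive cells held a median of 1 to 3 reads. In B cells the share was 2.63%, 4.17% and 1.69% in the WT groups and 0 in both CD3e-/- groups, so that the share in Lyz2-high cells of WT TAC was close to the background, and the level in B cells was 0.441, 10.1 and 4.33 CPM in the WT groups.

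Cd8a, which bears on the antibody treatment, was not lower per read in the group labelled CD8-depleted TAC. It came to 29.7 CPM (27.8 to 31.7) in WT sham, 25.9 CPM (24.6 to 27.2) in WT TAC and 26.6 CPM (24.7 to 28.6) in CD8-depleted TAC, a ratio of 1.03 (0.938 to 1.12) to WT TAC. No loss of Cd8a was thus read over all gated cells, of which 10.3% were CD3-positive in WT TAC and 15.4% in CD8-depleted TAC. In the T cell class alone, Cd8a came to 182 CPM in WT TAC and 116 CPM in CD8-depleted TAC, read in 6 of 35 and 5 of 29 cells. All these values are RNA levels relative to captured cells and rest on few cells. They do not measure the number of CD8+ T cells per heart, which the paper counted by flow cytometry. Whether the treatment removed such cells here, and whether the hashtag is assigned correctly, was not tested. Cd8a was read in 8 of 276 (2.90%), 12 of 349 (3.44%) and 7 of 182 (3.85%, 1.56 to 7.76) thinned gated cells, in 2 of 170 and 1 of 130 cells of CD3e-/- sham and CD3e-/- TAC, and in no B cell of any group. Without thinning the WT shares were 2.64%, 3.39% and 3.63%. The reads lay in few cells, and 2 cells carried 48.6% of those in CD8-depleted TAC.
Cd8b1, the β chain of CD8, came to 23.6, 36.7 and 31.7 CPM in WT sham, WT TAC and CD8-depleted TAC and to 0 reads in gated cells of both CD3e-/- groups. It was 1.16-fold lower (1.07 to 1.25) in CD8-depleted TAC than in WT TAC. In the T cell class Cd8b1 came to 271 CPM in WT TAC and 176 CPM in CD8-depleted TAC. With CD3-positive cells as the denominator, Cd8a was read in 7 of 35, 6 of 36 and 5 of 28 cells (20%, 16.7% and 17.9%). The limits were wide, 6.37 to 32.8 in WT TAC and 6.06 to 36.9 in CD8-depleted TAC. Each of these 18 cells also held Cd8b1. Of the 9 Cd8a-positive WT cells that were not CD3-positive, 8 held no Cd8b1. In WT sham 1 and in WT TAC 2 held 3 or more markers of type 1 conventional dendritic cells. By the same count, 1 cell in WT TAC and 1 in CD8-depleted TAC held those of type 2, and 1 and 1 those of plasmacytoid dendritic cells. In WT TAC 2 held those of macrophages, and a cell can count for more than 1 list. In the CD3e-/- groups the 3 Cd8a-positive gated cells held no Trac, Trbc1 or Trbc2 read.

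Cd4 without Cd8a or Cd8b1 was read in 7 of 35 CD3-positive cells of WT sham (20%, 8.44 to 36.9), 21 of 36 of WT TAC (58.3%, 40.8 to 74.5) and 15 of 28 of CD8-depleted TAC (53.6%, 33.9 to 72.5). Cd8a or Cd8b1 without Cd4 was read in 7 of 35 (20%), 7 of 36 (19.4%) and 5 of 28 (17.9%). The cells without any coreceptor read were 20 of 35 of WT sham (57.1%, 39.4 to 73.7), 7 of 36 of WT TAC (19.4%, 8.19 to 36.0) and 8 of 28 of CD8-depleted TAC (28.6%, 13.2 to 48.7). The intervals for Cd4 and for no coreceptor did not overlap between WT sham and WT TAC, whereas those for Cd8a or Cd8b1 overlapped. These intervals cover counting error within 1 sample each, and the difference between samples was not tested.
Of the 20 cells of WT sham without coreceptor reads, 14 held Trac and 5 held Trdc, and all of the Trdc-positive CD3-positive cells of any group were without coreceptor reads. Low coreceptor levels can leave a cell without a read at this depth, and this part was not tested.

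**Figure D4:**
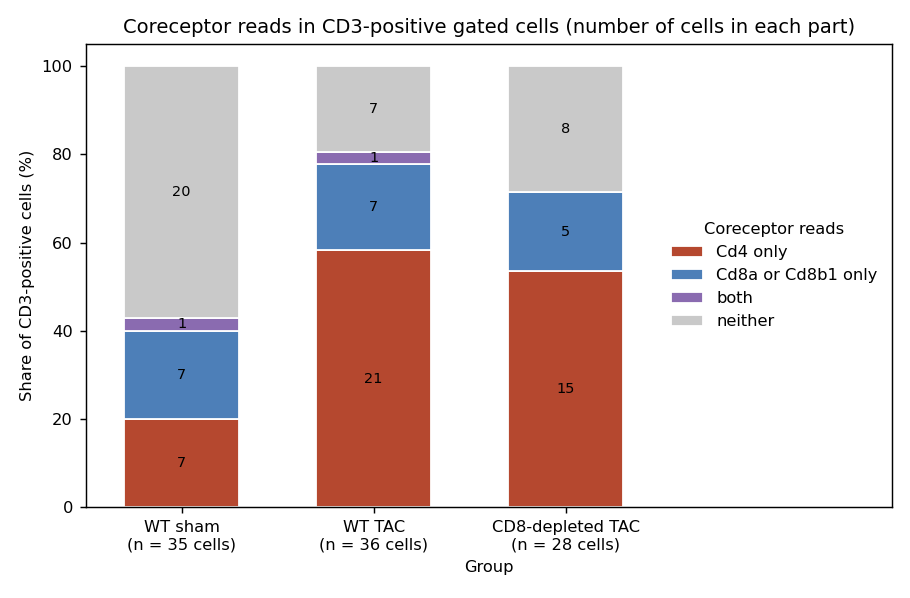
Share of CD3-positive gated cells (y axis, percent) with reads of Cd4 only, of Cd8a or Cd8b1 only, of both, or of neither, in the 3 groups of WT genotype, with the number of cells in each part. Cd4-only cells number 7 of 35, 21 of 36 and 15 of 28 from left to right, while cells with Cd8a or Cd8b1 only are 7, 7 and 5.

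Between WT TAC and WT sham, 3 of 10 members (Cd3g, Trbc1 and Trdc) lay at least 2-fold lower in WT TAC, where 5.04% of 7783 genes did, and 0 of 10 lay at least 2-fold higher, where 1.99% did. Trdc rested there on 6 positive gated cells of WT sham and 0 of WT TAC. Cd3e was 1.49-fold lower (1.39 to 1.60), Cd3d 1.94-fold lower (1.83 to 2.07), Trac 1.31-fold lower (1.25 to 1.38) and Cd8a 1.15-fold lower (1.06 to 1.25) in WT TAC. Cd4 alone among the 10 stood higher, 2.87-fold (2.52 to 3.27) before the addition of 10 CPM. The gated cells of WT sham also held 32 cells of the ILC2 class against 4 in WT TAC. In WT sham the ILC2 class held 250 of the 4050 Cd3g reads and 903 of the 5144 Trbc1 reads of gated cells. In WT TAC it held 164 of 2939 and 245 of 4186. Within the T cell class, Cd3g came to 863 CPM in WT sham and 438 CPM in WT TAC, and Trbc1 to 513 and 529 CPM. The cause of these differences was not tested.
Between CD8-depleted TAC and WT TAC, 0 of 10 members lay at least 2-fold lower in CD8-depleted TAC, where 0.211% of 7569 genes were, and 2 of 10 (Trbc1 and Trdc) at least 2-fold higher, against 1.32%. Before the addition of 10 CPM each member was read at the level of WT TAC or above it. The ratios ran from 1.03-fold for Cd8a through 1.51-fold for Cd3e (1.40 to 1.62) and 2.20-fold for Trbc1 (2.11 to 2.30) to 2.37-fold for Cd247 (2.17 to 2.59). Trdc was read in 4 of 193 gated cells of CD8-depleted TAC and in 0 of 384 of WT TAC, too few cells for a fold. Both comparisons share WT TAC.

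Other genes of the receptor and of its signalling were also lower in CD3e-/- mice. A list of 24, called the signalling list, includes the kinases Lck and Zap70, the adaptor Lat and the receptors Cd28 and Cd5. It also holds the coreceptor chain Cd8b1 and the constant regions Trgc1, Trgc2 and Trgc4, which are not signalling genes. Of the list, 18 were tested between the sham groups and 9 lay at least 2-fold lower in CD3e-/- sham, against 1.06% of all genes: Lck, Lat, Skap1, Rasgrp1, Cd28, Ptprcap, Cd8b1, Trgc1 and Trgc2. The median log2 ratio of the list was -0.96, against -0.04 over all genes tested. Lck, the kinase that phosphorylates the CD3 and ζ chains, came to 62.7 CPM in WT sham and 17.2 CPM in CD3e-/- sham, and to 45.5 and 11.1 CPM in WT TAC and CD3e-/- TAC. Fyn, a related kinase used by many leukocytes, came to 127 and 117 CPM in the sham groups and to 140.1 and 119 CPM in the TAC groups. Between the TAC groups 4 of 11 lay at least 2-fold lower in CD3e-/- TAC, against 0.613% of all genes: Lck, Lat, Cd5 and Cd8b1, with a median of -0.69 against -0.01. Cd5, an inhibitory receptor of T cells, came to 35.1 CPM in WT TAC and to 0 in CD3e-/- TAC.
Some list genes stayed nearer to their WT levels, such as Lcp2, an adaptor that other leukocytes also use, at 139 and 111 CPM in the sham groups. Cd2, an adhesion receptor of T and NK cells, came to 54.5 and 25.8 CPM in the sham groups and to 34.2 and 33.9 CPM in the TAC groups. In a second list, 30 genes of T cell lineage and state, 8 of 21 tested lay at least 2-fold lower in CD3e-/- sham, against 1.06% of all genes: Bcl11b, Tcf7, Cxcr6, Cd69, Icos, Ctla4, Ifng and Gzmb, with a median of -0.61. Ifng and Gzmb are also used by NK cells, whose class held 15 of 276 gated cells in WT sham and 3 of 170 in CD3e-/- sham, with markers summing to 181 and 134 CPM, and their part was not tested. In the TAC groups only Cxcr6 did, 1 of 14, with a median of -0.06. Bcl11b, a factor of T cell commitment, came to 70.8 CPM in WT sham, 29.3 CPM in CD3e-/- sham, 19.5 CPM in WT TAC and 6.50 CPM in CD3e-/- TAC.
From WT sham to WT TAC, 8 of 19 genes of the signalling list and 9 of 20 state genes lay at least 2-fold lower, against 5.04% of all genes tested. The 8 include Trgc1, Trgc2 and Trgc4. The medians were -0.64 and -0.82 against 0.03 over all genes. Gata3, which both T cells and ILC2 use, stood at 108 and 11.6 CPM and Il7r, the interleukin-7 receptor, at 219.9 to 91.1 CPM. The ILC2 class held 32 and 4 cells, and markers of mast cells summed to 13364 and 1606 CPM in gated cells of WT sham and WT TAC. The part of either kind of cell in these values was not tested. Itgae, also a marker of dendritic cells, was, among the tested 19 and 20 genes of the lists, the only gene at least 2-fold higher once 10 CPM had been added, at 26.7 and 74.0 CPM. Without the addition Cd5 was also more than 2-fold higher, at 16.8 and 35.1 CPM.

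Within CD3-positive cells of the 3 WT groups, some list genes were read at like shares whatever the coreceptor and others were not. Lat was read in 36 of 43 cells with Cd4 only, 18 of 19 with Cd8a or Cd8b1 only and 33 of 35 with neither. Bcl11b was read in 32 of 43, 15 of 19 and 27 of 35. Zap70, in contrast, was read in 30 of 43, 5 of 19 and 22 of 35, and Cd44 in 36 of 43, 7 of 19 and 24 of 35. These examples were picked after their values were seen. Lck was read in 40 of 43 cells with Cd4 only, in all 19 with Cd8a or Cd8b1 only and in 26 of 35 with neither. Trac was read in 42 of 43, 19 of 19 and 25 of 35 of them. Also named after their values were seen were Cd40lg and Eomes. Cd40lg, the CD40 ligand of helper T cells, was read in 19 of 43, 0 of 19 and 11 of 35 cells. Eomes, a factor of cytotoxic T cells, was read in 0 of 43, 8 of 19 and 2 of 35. Il17a, a cytokine, was read in 7 of the 35 cells without coreceptor reads, of which 4 held Trdc, and in no cell of the other sets. Ccl5, a chemokine of effector cells, was read in 17 of 43, 15 of 19 and 9 of 35 cells. Foxp3, which marks regulatory T cells, was read in 2, 0 and 3 cells.

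The genes whose levels were most like those of Cd3g over 687 gated cells of WT sham and WT TAC, on the natural log scale of CPM with 1 added, were Lck (Pearson's r 0.71), Thy1 (0.69), Gimap3 (0.65), Ets1 (0.64) and Lat (0.64) among genes outside the 10, of 18489 compared. Among the members the values were 0.81 for Cd3e, 0.79 for Trac, 0.76 for Trbc2, 0.73 for Cd3d, 0.66 for Cd247, 0.55 for Trbc1, 0.39 for Cd4 and 0.31 for Cd8a. Cells share the library and are not replicates, and these values describe likeness over cells only.

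Outside the gate cells with reads of 2 or more CD3 genes were rare. CD3-positive cells were 5 of 607 thinned ungated cells of WT sham (0.824%), 7 of 1142 of WT TAC (0.613%) and 4 of 652 of CD8-depleted TAC (0.613%), and 1 of 566 and 1 of 709 in the CD3e-/- sham and TAC groups. Few cells carried the reads: among B cells of WT TAC 2 of 95 held all Trbc2 reads, which came to 108 CPM there.
Cd3e was higher in Lyz2-high cells of the CD3e-/- groups than in those of the WT groups, the opposite of gated cells. It came to 5.03 CPM (4.49 to 5.62) in CD3e-/- sham and 6.27 CPM (5.81 to 6.75) in CD3e-/- TAC, against 2.69 CPM (2.29 to 3.15) in WT sham, 3.10 CPM (2.82 to 3.40) in WT TAC and 2.96 CPM (2.59 to 3.36) in CD8-depleted TAC. Only 8.45% and 9.51% of the Cd3e reads of CD3e-/- sham and CD3e-/- TAC lay in gated cells.
When the few cells with reads of 2 or more CD3 genes were left out, the level in Lyz2-high cells was 3.89 CPM (3.41 to 4.41) and 6.09 CPM (5.63 to 6.57) in CD3e-/- sham and CD3e-/- TAC, and 0.404, 0.519 and 0.260 CPM in WT sham, WT TAC and CD8-depleted TAC. These reads lay in 29 of 515 and 59 of 680 cells of the CD3e-/- groups and in 19 of 588, 45 of 1126 and 15 of 627 cells of the WT groups. The share of thinned Lyz2-high cells with a Cd3e read was 3.15% and 5.38% in the CD3e-/- groups and 0.843% to 2.24% in the WT groups, at median depths of 86885.5 and 128161 reads against 78342 to 105075.
Cd3d in the same cells, at 1.45 and 1.18 CPM in the CD3e-/- groups and 0.996 to 1.42 CPM in the WT groups, showed no such difference, and Cd3g was at or near 0 in all 5 groups. Whether the Cd3e reads come from the altered locus was not tested, since the table holds no read positions.

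**Figure D5:**
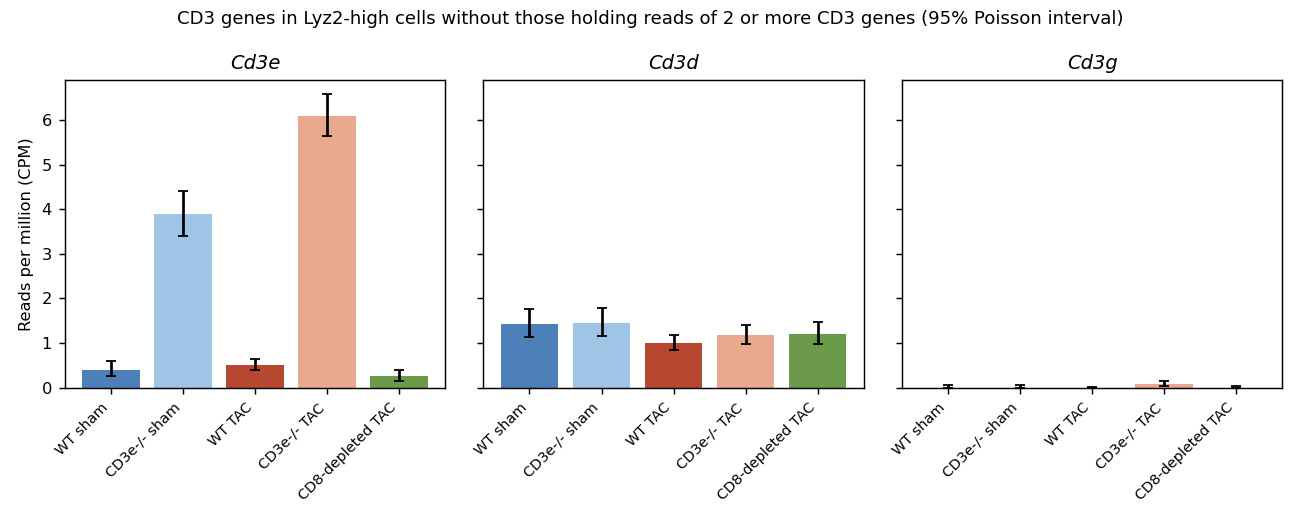
Level in CPM (y axis) of Cd3e, Cd3d and Cd3g in Lyz2-high cells of the 5 groups, without the cells that held reads of 2 or more CD3 genes, with exact 95% Poisson intervals. Cd3e stands at 3.89 and 6.09 CPM in CD3e-/- sham and CD3e-/- TAC and at no more than 0.519 CPM in the 3 WT groups, whereas Cd3d lies between 0.996 and 1.45 CPM in all 5.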

How the data were processed

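The deposited table held read counts per gene and cell, which the authors made by trimming, mapping and demultiplexing the reads of 1 pooled library. The counts are labelled DBEC, and whether that step removed low counts of some genes was not tested. In Lyz2-high cells of WT TAC, positive cells held a median of 67 reads of Cd3g but 1 read of Cd3d. Shares and background are therefore not strictly alike between genes. The submitters' processing notes name cutadapt 2.10, Bowtie2 2.4.2 and build GRCm38. Counts were used as deposited. A kept cell had reads of at least 500 genes, and mitochondrial genes took at most 0.4 of its reads. Of 5363 columns, 40 named doublets were kept apart, with no further doublet caller, and 8 without a hashtag were not used. CPM are summed reads of a gene per 1000000 summed reads. Each cell was thinned to 33929 reads, the 10% quantile of gated cells. Because each group was 1 sample, no test was made, and all genes served as the yardstick (20 CPM or more in either group, 10 CPM added, 2-fold). The counting steps were tested on simulated data. Alternatives were other gates, filters, read minimums, marker minimums, scalings and fold limits.
Named were all members, genes of the signalling and state lists at 20 CPM or more in gated cells of WT sham or WT TAC, marker lists as a whole, and the genes most correlated with Cd3g. The members and lists were chosen with earlier results of these data known. The γ constant genes appear under the symbols Trgc1, Trgc2 and Trgc4. Promoters of 5 members were in the RefSeq table, and positions of all 10. The scripts ran under Python 3.11.15 with matplotlib 3.10.9, pandas 2.3.3, scipy 1.17.1 and numpy 2.4.6.
Some genes of the fixed lists are not reported here.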

Additional observations from a re-analysis of the deposited data

Results flagged for a closer look

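For 4 members the level in gated cells after TAC lay on opposite sides of the sham level in WT and in CD3e-/- mice. Each group is 1 sample, and the difference between the genotypes was not tested. Cd3e came to 46.0 CPM in WT sham and 30.9 CPM in WT TAC, but to 1.32 and 3.32 CPM in the CD3e-/- groups. Cd247 came to 34.5 and 16.8 CPM, but to 3.31 and 9.95 CPM. Trdc came to 45.2 and 0 CPM, but to 0 and 2.55 CPM, with 6, 0, 0 and 2 positive cells. Cd4 came to 8.71 and 25.0 CPM, but to 2.95 and 1.64 CPM.

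Barcodes called doublets, which no comparison used, held 1635 reads of the 10 genes. They included 265 reads of Trbc1 and 500 of Trbc2 in 3 cells each, 106 reads of Cd3g in 1 cell and no reads of Trdc or Cd8a, over 39 barcodes that passed the filters.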

How the results depend on the processing

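Of the main results' values under the alternatives, 247 moved by less than their counting interval or, for counts and percentages of genes, by no more than 1.5 times, and 29 by more, as follows. With Lyz2 under 1000 and Cd79a under 100 CPM as the gate, the Cd8a share of CD3e-/- sham was 0, and 1 member rather than 0 was higher in WT TAC than in CD8-depleted TAC. With a minimum of 2 or of 5 reads, the share of CD3-positive ungated cells was 0 in both CD3e-/- groups. With 5 reads, the Cd4 share was 6.30% in WT TAC and 0.769% in CD3e-/- TAC, and the Cd8a share of CD3e-/- TAC was 0. The share of cells of a class with Trbc1 or Trbc2 reads was 100% in the NK cell class of the WT groups at 2 reads. In the ILC2 class it was 67.9% (WT groups) and 71.9% (CD3e-/- groups) at 2 markers, and in the CD3e-/- groups 100% at 4 markers and at 2 reads. With Cd5, Cd6, Cd28 and Lck as T cell markers, chosen after seeing the data, this share was 100% in the T cell class of the WT groups and 74.7% (WT groups) and 71.8% (CD3e-/- groups) in the ILC2 class, and 12% of the ILC2 class of the WT groups was CD3-positive. Genes past the fold were 2.25% with 1 CPM added and 0.143% at 4-fold for CD3e-/- sham below WT sham, 1.23% and 0.12% for CD3e-/- TAC below WT TAC, and 1% at 4-fold for WT TAC below WT sham. They were 3.35% and 0.308% for WT TAC above WT sham, 0.515% and 0.0528% for CD8-depleted TAC below WT TAC, and 2.25% and 0.172% above it. The cause of these changes was not tested. Among single members and groups, 114 further values moved by less than their interval and 136 by more. No paired analysis was possible because each group was 1 sample. Few cells held Trdc or Cd8a, and statements on them rest on those cells.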
